A study of Mus musculus with 18 samples.

Results

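The 10 elastic fibre genes Eln, Fbn1, Fbn2, Fbln1, Fbln2, Fbln5, Mfap2, Mfap4, Mfap5 and Emilin1 were followed across cell classes, arms and days in single-cell RNA profiles of mouse skin. They were taken by symbol, and each symbol matched 1 of the 32285 genes in all 10 matrices. All mice had back surgery that opened a path under the skin, and only those of the expanded arm were given a hydrogel expander, which stretches the skin above it. Skin was taken on day 1, 2 or 4, and sorted DAPI-negative cells were profiled by 10x Genomics 3′ sequencing. Each arm had 5 libraries, from rounds 1 and 2 of day 1, rounds 1 and 2 of day 2, and 1 round of day 4, and each library pooled the mice of its arm and round. The control arm therefore shared the incision and the tunnel under the skin with the expanded arm. Strain and age of the mice are not given in the sources used here.

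An elastic fibre has a core of crosslinked elastin, the product of Eln, laid down on a scaffold of microfibrils. Fibrillins, encoded by Fbn1 and Fbn2, are the main polymer of the microfibrils, and the microfibril-associated proteins encoded by Mfap2 and Mfap5 bind to them. Fibulins and emilin 1 lie at the border of the core and the microfibrils, and fibulin 5 brings elastin to the scaffold for crosslinking. In skin these fibres give elastic recoil, and dermal fibroblasts are their main source.

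On the GRCm38 build (GENCODE M21), Eln spans 134702593 to 134747323 and Emilin1 30913402 to 30921277 on chromosome 5, and Fbln2 spans 91212455 to 91272540 and Mfap5 122505845 to 122529290 on chromosome 6. Of the other 6 genes, positions are given for Fbn1 on chromosome 2 (125300594 to 125507993), Mfap2 on chromosome 4 (141010418 to 141015984), Mfap4 on chromosome 11 (61485431 to 61488900), Fbln5 on chromosome 12 (101746565 to 101819055) and Fbln1 on chromosome 15 (85205949 to 85286535). The position of Fbn2 is not reported here. None of the 9 genes with a position overlaps another of them. The windows of Fbn1 and Fbln2 printed next lie inside these spans, since RefSeq's start is downstream of the outermost GENCODE start.

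RefSeq promoter windows (GRCm38.p6) were at hand for 6 of the 10 genes. Those shown are the 250 bases before the start of 3 genes that fell together in fibroblast-like cells, Fbn1, Fbln1 and Mfap2, and of Fbln2, which was not called lower there. Capitals mark 4 motifs searched on both strands: GGGCGG (bound by Sp1), TGANTCA (AP-1), CAGACA (a SMAD-type element) and CCAAT (NF-Y). The Fbn1 window is chr2:125506439-125506688 on the minus strand, that of Fbln1 chr15:85205699-85205948, that of Mfap2 chr4:141010174-141010423 and that of Fbln2 chr6:91212514-91212763. The last 3 are on the plus strand, and each is written 5′ to 3′ in the gene's direction.
Fbn1: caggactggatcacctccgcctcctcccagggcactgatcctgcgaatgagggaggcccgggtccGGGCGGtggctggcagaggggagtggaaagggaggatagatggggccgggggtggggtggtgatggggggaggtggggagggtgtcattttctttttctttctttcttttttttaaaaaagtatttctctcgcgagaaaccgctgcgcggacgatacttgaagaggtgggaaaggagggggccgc
Fbln1: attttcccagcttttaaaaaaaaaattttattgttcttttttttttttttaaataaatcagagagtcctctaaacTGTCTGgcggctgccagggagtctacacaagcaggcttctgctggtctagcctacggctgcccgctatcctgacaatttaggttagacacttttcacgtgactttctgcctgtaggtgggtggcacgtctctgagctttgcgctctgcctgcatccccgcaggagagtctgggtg
Mfap2: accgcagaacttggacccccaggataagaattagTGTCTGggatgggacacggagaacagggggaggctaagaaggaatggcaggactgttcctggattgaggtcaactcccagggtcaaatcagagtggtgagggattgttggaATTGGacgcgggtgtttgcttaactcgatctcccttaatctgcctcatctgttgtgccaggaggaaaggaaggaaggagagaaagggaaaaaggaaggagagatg
Fbln2: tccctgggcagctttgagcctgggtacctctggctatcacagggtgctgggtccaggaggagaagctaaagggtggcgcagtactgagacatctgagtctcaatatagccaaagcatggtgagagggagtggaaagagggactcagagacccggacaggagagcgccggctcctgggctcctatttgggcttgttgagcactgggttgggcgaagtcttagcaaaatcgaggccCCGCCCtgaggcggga

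The windows of Fbn1 and Fbln2 each held GGGCGG 1 time, in the latter on the other strand. Those of Fbln1 and Mfap2 each held CAGACA 1 time, read as TGTCTG on the other strand, and that of Mfap2 also held CCAAT 1 time, read as ATTGG. None of the 4 windows held the AP-1 motif. Among all 32851 RefSeq windows of the same length, 32.7% held GGGCGG, 6.75% TGANTCA, 17.1% CAGACA and 33.9% CCAAT. No motif was shared by all 3 genes that fell, and these matches are letters in a window, not measured sites.

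After filters 45518 cells remained, 28479 control and 17039 expanded, and gene UMIs per library ran from 17726739 to 75470722. The libraries shared 1 to 23 cell barcodes per pair, at most 0.377% of the smaller library. Cells fell into 42 clusters that were formed without the 10 genes and named by marker lists, and 5501 cells stayed unnamed. The 11973 fibroblast-like cells made up 22.1% to 53.8% of the control libraries and 6.38% to 22.4% of the expanded ones, and their median UMIs per cell were 8132.5 to 14110 and 12505 to 20397. Each library's UMIs were added up within a class, and levels are given as CPM, a gene's share of the class's UMIs on the usual CPM scale. Levels are compared for 1 gene at a time and not between genes.

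Among the named classes of control skin, fibroblast-like cells held the highest level of 7 of the 10 genes. For Eln they stood at 980.1 ± 291 CPM (SD, n = 5), and their lowest library, at 702 CPM, was above every library of the next class. That class, pericyte or smooth muscle-like cells, had 134 ± 149.7 CPM, followed by Schwann-like, lymphatic endothelial-like and endothelial-like cells with 112 (n = 4), 98.0 and 90.0 CPM, and neighbours among these overlapped. The rank of pericyte or smooth muscle-like cells rested on control round 1 of day 1, at 400.1 CPM: their median was 71.3 CPM, and without that library their mean was 67.1 CPM, below the other 3 of these classes. Fbn1 ran from 843 ± 223 CPM in fibroblast-like cells to 136 ± 63.5 CPM in dermal papilla-like cells (n = 3), the next class. Mfap4, which encodes a microfibril-associated glycoprotein, stood at 1006 ± 211 CPM in fibroblast-like and 215 ± 76.5 CPM in dermal papilla-like cells. For Mfap2 the same 2 classes led, at 361 ± 89.2 and 199 ± 77.7 CPM, without overlap between them.

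Fibulin genes were spread more widely. Fbln2 stood at 614 ± 71.7 CPM in fibroblast-like, 351 ± 82.1 CPM in dermal papilla-like and 315 ± 44.2 CPM in endothelial-like cells. The last 2 overlapped. Among named classes, Fbln5 was highest in lymphatic endothelial-like cells, at 246 ± 47.6 CPM, and endothelial-like cells, at 222 ± 85.6 CPM. Fibroblast-like cells stood at 137 ± 42.8 CPM, and each of these classes overlapped with its neighbour. The control libraries of the unnamed cells held 290 to 606 CPM of Fbln5. Fbln1, at 399.8 ± 65.8 CPM in fibroblast-like cells, was next in basal keratinocyte-like cells, at 62.8 ± 16.9 CPM. That level was above the 5.93 CPM of T cell-like cells, which are taken here as the background of free RNA. It overlapped with dermal papilla-like cells, at 54.5 ± 15.4 CPM.

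Emilin1 and Fbn2 had other leading classes. Emilin1 stood at 83.6 ± 16.9 CPM in pericyte or smooth muscle-like, 69.0 ± 39.9 CPM in dermal papilla-like and 33.0 ± 4.80 CPM in fibroblast-like cells. The fibroblast-like range, 28.7 to 39.3 CPM, did not reach the pericyte or smooth muscle-like range, 66.0 to 103 CPM. Fbn2, the fibrillin best known from developing tissue, was low throughout, with 38.6 ± 41.9 CPM in dermal papilla-like and 8.57 ± 2.09 CPM in fibroblast-like cells, which overlapped. Without control round 2 of day 1, at 85.2 CPM, the dermal papilla-like mean was 15.3 CPM. Mfap5 stood at 87.5 ± 21.8 CPM in fibroblast-like cells and overlapped with Schwann-like cells, at 57.1 ± 57.5 CPM (n = 4), or 28.7 CPM without control round 1 of day 2. T cell-like cells held 16.4 CPM of Eln, 13.0 of Fbn1, 21.0 of Mfap4 and 30.8 of Fbln2 in control libraries, against 5.96, 3.56, 1.68 and 31.2 in expanded ones.

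**Figure D1:**
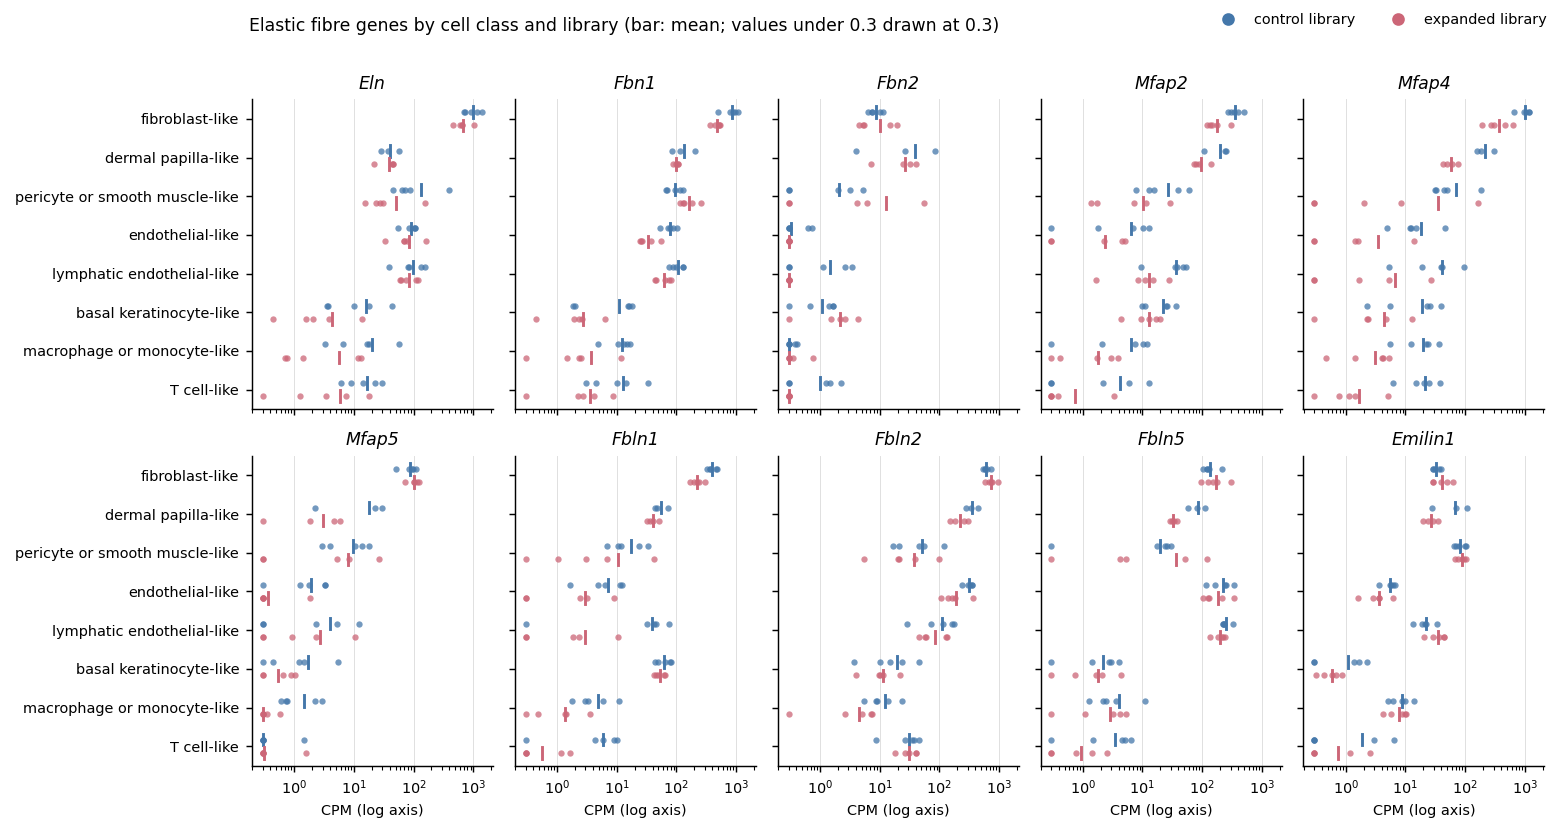
CPM (log axis) of each elastic fibre gene in 8 cell classes, with 1 point per library of at least 20 cells of the class and a bar at the mean of each arm. Among the classes shown, fibroblast-like cells lead for Eln, Fbn1, Mfap2, Mfap4, Mfap5, Fbln1 and Fbln2, endothelial classes for Fbln5 and pericyte or smooth muscle-like cells for Emilin1.

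Within the fibroblast-like cells of control skin, the genes differed between clusters, which are given by number and leading genes. Cluster 17 (Cadps, Mme, Igfbp2, Wnt5a) had 794 ± 81.6 CPM of Fbln1, 446 ± 102 of Fbln5 and 339.9 ± 54.7 of Mfap5, but 252 ± 149 of Mfap4. Cluster 5 (Cilp, Ltbp2, Lox) had 1498 ± 403 CPM of Mfap4 and 1235 ± 367 of Eln, and Mfap4 and Eln are themselves among its 10 leading genes. Cluster 1 (B830012L14Rik, Mirg, Rian) had 10.1 ± 5.99 CPM of Mfap5, and cluster 19 (Sult1e1, Lgi2, Agt) had 274 ± 54.1 of Mfap5 but 323 ± 173 of Eln. Mfap5 thus ran from 10.1 to 339.9 CPM over the fibroblast-like clusters, whereas Fbln2 ran from 574 to 665 CPM. Eln in clusters 17, 5, 0 and 1 ran from 919 to 1299 CPM with overlapping libraries.

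Unnamed mesenchymal clusters held the peaks of 3 genes. Fbln5 reached 879.9 ± 84.7 CPM in cluster 10 (Fmod, Kera, Cck), whose lowest library, at 751 CPM, was above every library of the next cluster. Fbn2 reached 152 ± 114 CPM in cluster 20 (Acan, Lrrc15, Egfl6; n = 4) and 66.6 ± 20.5 CPM in cluster 31 (Apod, Smim41, Ebf2), with overlap, and Fbn2 is among the leading genes of cluster 20. Without control round 2 of day 1 the mean of cluster 20 was 98.8 CPM. Mfap5 reached 375 ± 43.5 CPM in cluster 31, overlapping with cluster 17, while Eln was at 32.0 ± 30.2 CPM there. These levels describe clusters drawn from the same cells and carry no test.

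**Figure D2:**
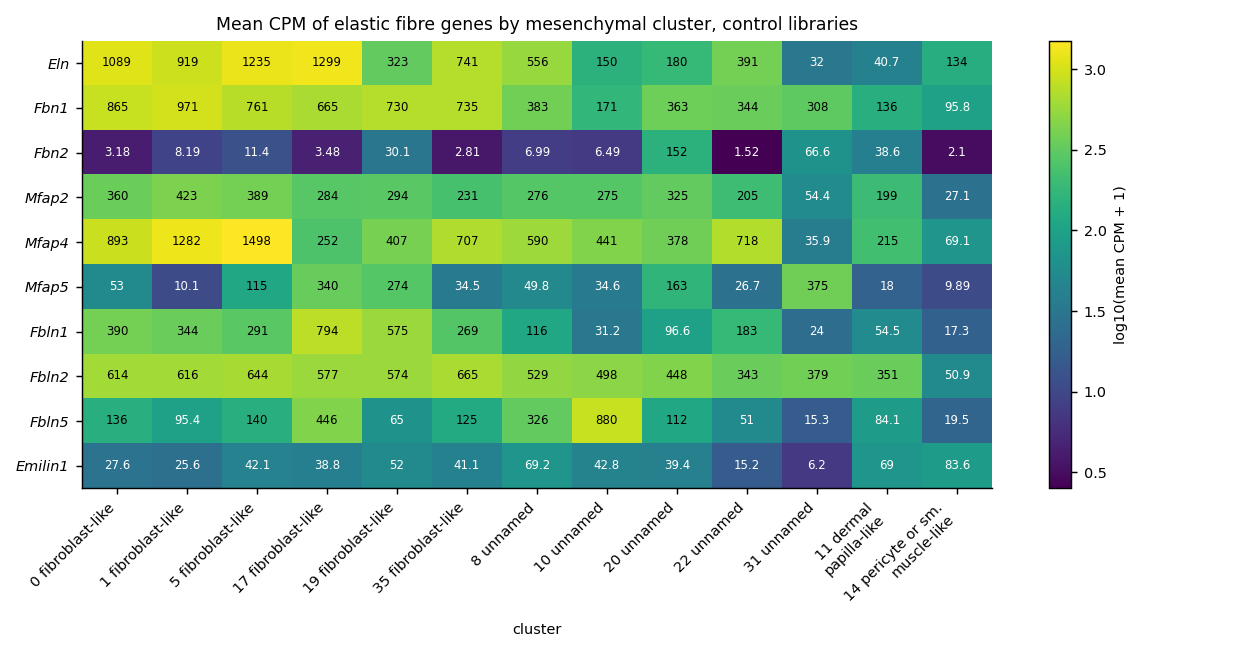
Mean CPM over control libraries of each elastic fibre gene (rows) in 13 mesenchymal clusters (columns), with the colour on a log10(CPM + 1) scale and the mean printed in each cell. Fbln5 peaks at 879.9 in cluster 10, Fbn2 at 152 in cluster 20 and Mfap5 at 375 in cluster 31, while Fbln2 is even over the fibroblast-like clusters.

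For each gene, the 3 genes with the most similar level over the 9 fibroblast-, dermal papilla- and pericyte or smooth muscle-like clusters were sought among 2834 genes with a mean of at least 50 CPM. Closest to Fbn1 were Col5a2 (Pearson r = 0.998), a fibrillar collagen gene, Rnase4 (0.995) and Tmsb10 (0.993). Closest to Eln were Itgb5 (0.988), Amotl1 (0.971) and Pmp22 (0.968). The top match was P4hb for Fbln1 (0.988), Prkcsh for Fbln2 (0.979), Lsamp for Fbln5 (0.967), Rnf13 for Mfap2 (0.983), Arnt for Mfap4 (0.959), Slit3 for Mfap5 (0.969), Atp6v1f for Emilin1 (0.973) and Puf60 for Fbn2 (0.948). The 9 points share libraries, and the best of 2834 values is high by selection.

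Expanded and control skin were then compared in fibroblast-like cells. Transcripts of Eln, Fbn1, Mfap2, Mfap4 and Fbln1 were lower in expanded skin in all 5 pairs of a day and round, with log2 fold changes from -0.72 to -1.76. The other 5 genes, Fbn2, Mfap5, Fbln2, Fbln5 and Emilin1, did not pass the test. These sums were compared by edgeR's quasi-likelihood test, adjusted for day, with Benjamini-Hochberg adjustment over all 12270 genes tested, and 35.6% of those were called at an adjusted p under 0.05, 17.7% lower and 17.9% higher. Of the 10 genes, which all passed the filter on low counts, 5 were called lower and 0 higher, with a median log2 fold change of -0.38 against 0.01 for all genes tested.

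Eln, the elastin gene, stood at 1394 and 1141 CPM in the 2 control libraries of day 1, 702 and 731 in those of day 2 and 933 on day 4, and at 1048, 658, 636, 464 and 598 CPM in the expanded libraries in the same order. Each expanded library was below its partner, but the arms overlapped, with the control libraries of day 2 the lowest of their arm. The log2 fold change was -0.72 ± 0.17 (SE; adjusted p = 0.00703, edgeR). The call rested on the cells included: it was lost without cluster 23 (-0.43, adjusted p = 0.0999) and at a finer clustering (-0.33, adjusted p = 0.179).

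Fbn1, the main fibrillin gene of adult tissue, stood at 489 and 890 CPM on day 1, 942 and 804 on day 2 and 1089 on day 4 in control libraries, and at 444, 366, 507, 527 and 520 CPM in expanded ones. Control round 1 of day 1 stood far below the other 4 control libraries and inside the expanded range. The log2 fold change was -1.03 ± 0.16 (SE; adjusted p = 0.000814, edgeR).

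Mfap2, which encodes MAGP-1, a fibrillin-binding microfibril protein, stood at 397, 305, 336, 269.9 and 497 CPM in control libraries and at 180, 122, 148, 136 and 302 CPM in expanded ones, in the same order. Only the expanded library of day 4 reached the control range. The log2 fold change was -1.28 ± 0.17 (SE; adjusted p = 0.000375, edgeR). Mfap4 stood at 984, 1049, 1172, 656 and 1169 CPM in control libraries and at 639, 459, 267, 192 and 299 CPM in expanded ones, so the arms did not overlap. Its log2 fold change, -1.76 ± 0.25 (SE; adjusted p = 0.000532, edgeR), was the largest of the set.

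Fbln1, the gene of a fibulin found in elastic fibres and basement membranes, also separated the arms. It stood at 324, 369, 465, 368 and 473 CPM in control libraries and at 298, 241, 196, 170.2 and 219.7 CPM in expanded ones, with a log2 fold change of -1.05 ± 0.17 (SE; adjusted p = 0.000903, edgeR). Fbln1 and Mfap4 were the 2 of the 10 genes whose arms did not overlap, both lower in expanded skin. Of all genes tested, 4.85% were lower and 15.9% higher without overlap.

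The remaining fibulins and Emilin1 were not called. Fbln2 stood at 733, 623, 584, 546 and 586 CPM in control libraries and at 686, 593, 726, 757 and 973 CPM in expanded ones, lower on day 1 and higher on days 2 and 4. Fbln5 stood at 119.6, 129, 104, 122 and 212 CPM against 94.5, 125, 177, 149 and 302 CPM, with the highest value of each arm on day 4. Emilin1, whose product links elastin and microfibrils, stood at 29.2, 28.7, 30.8, 36.9 and 39.3 CPM against 29.5, 28.8, 39.6, 49.4 and 61.9 CPM. After TMM scaling of the libraries, the log2 fold changes of Fbln2, Fbln5 and Emilin1 were 0.06, 0.04 and 0.08, with 95% intervals of -0.28 to 0.40, -0.33 to 0.41 and -0.20 to 0.35.

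Mfap5, the gene of MAGP-2, stood at 51.9, 84.7, 97.9, 93.1 and 109.7 CPM in control and 71.7, 115, 103, 125 and 99.99 CPM in expanded libraries. Its log2 fold change was 0.05, with a 95% interval of -0.32 to 0.42, and at a finer clustering it was called higher (0.56, adjusted p = 0.0389). With cells chosen by a marker gate in place of clusters it was -0.17 (adjusted p = 0.307). Fbn2 rested on few molecules, 9 to 341 UMIs per library, and stood at 7.50, 7.50, 10.1, 11.3 and 6.34 CPM against 5.38, 5.48, 15.1, 4.59 and 19.7 CPM. Its log2 fold change of -0.05 had a 95% interval of -0.77 to 0.68, and with total counts in place of TMM scaling it was 0.15. Total-count scaling moved the median of all genes to 0.22 and kept the 5 calls.

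**Figure D3:**
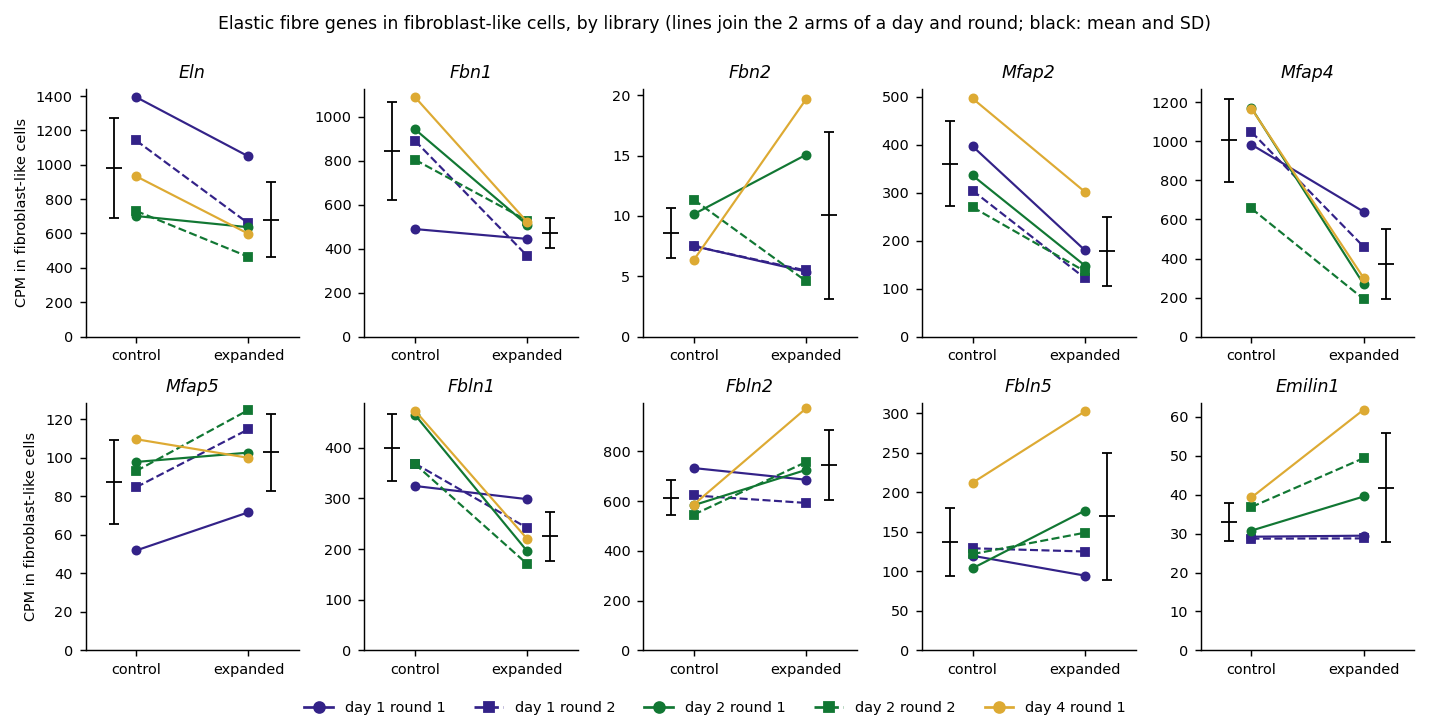
CPM of each elastic fibre gene in fibroblast-like cells, with a line from the control to the expanded library of each day and round and black bars for the mean and SD of each arm (n = 5). All 5 lines fall for Eln, Fbn1, Mfap2, Mfap4 and Fbln1, and all 5 rise, on day 1 only slightly, for Emilin1. The CPM shown are without TMM scaling, and with it the fitted log2 fold change of Emilin1 on day 1 was -0.26, not called.

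Summed over the 10 genes, control fibroblast-like cells held 3638 to 5114 CPM and expanded ones 2574 to 3497 CPM, without overlap. With every cell thinned to 2000 UMIs, the share of fibroblast-like cells with a UMI of Mfap4 was 49.2% ± 5.13 in control and 26.8% ± 8.93 in expanded libraries (SD, n = 5), and that of Mfap2 was 46.1% ± 8.02 and 26.7% ± 8.01. The 254 fibroblast-like cells with fewer UMIs were left out. Unthinned, the means were 68.2% and 48.9% for Mfap4 and 82.5% and 63.6% for Mfap2. In T cell-like cells the thinned shares of Mfap4 were 2.79% and 0.583%, at median depths of 2735.5 to 4289 UMIs in control and 3794 to 5990 in expanded libraries. In Fbln2, which was not called, the thinned shares in fibroblast-like cells were 65.0% ± 4.58 and 63.9% ± 4.999.

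The makeup of the fibroblast-like class moved with the arm. Clusters 0 and 1 made up 28.4% and 34.0% of it at the median in control libraries and 16.6% and 3.45% in expanded ones. Cluster 23, led by Cxcl5, Tnc and Il19, made up 0.420% and 35.3%, and cluster 17 made up 7.46% and 24.4%. The summed level of the 7 fibroblast markers was 53670 to 153200 CPM in control and 21620 to 68510 CPM in expanded fibroblast-like cells, and that of the 7 basal keratinocyte markers 10.1 to 47.3 and 15.9 to 149 CPM. No marker of either list was at 0 in an arm. The part of these differences in the results was not tested beyond the fits within clusters that follow.

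Clusters 0, 5 and 17 had at least 3 libraries per arm with 20 cells and could be tested singly, cluster 0 with 3 pairs. Fbn1, Fbln1 and Mfap4 were lower and called in each of the 3. In cluster 0, where 6.91% of genes were called, those 3 of the 10 genes were called, with log2 fold changes of -0.83 for Fbn1, -0.79 for Fbln1 and -0.92 for Mfap4. In cluster 5, where 12% of genes were called, the 4 called were Fbln1 at -1.37, Mfap4 at -1.21, Mfap2 at -0.86 and Fbn1 at -0.83. Mfap2 had -0.74 in cluster 0 (adjusted p = 0.0595, edgeR), which passed with the day and round pairs as a block (adjusted p = 0.0302).

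In cluster 17, where 15.3% of genes were called, 7 of the 10 genes were called, and Fbn2 did not pass the filter. Fbln1 was at -1.05, Mfap4 at -0.81, Mfap2 at -0.80, Eln at -0.72 and Fbn1 at -0.46. Mfap5, the gene with its fibroblast-like peak in this cluster, fell by 0.77 on the log2 scale (adjusted p = 0.00346, edgeR), from 339.9 ± 54.7 to 209 ± 37.5 CPM. Fbln2 rose by 0.64 (adjusted p = 0.00699, edgeR), from 577 ± 41.7 to 955 ± 162 CPM and in 5 of 5 pairs. In cluster 5 Fbln2 stood at 644 ± 147 CPM in control and 492 ± 58.1 CPM in expanded libraries (-0.47, adjusted p = 0.0514, edgeR), which passed with the pairs as a block (adjusted p = 0.0304). The difference between these clusters was not tested. Eln was not called in cluster 5 (-0.29, adjusted p = 0.484) or cluster 0 (-0.58, adjusted p = 0.221).

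**Figure D4:**
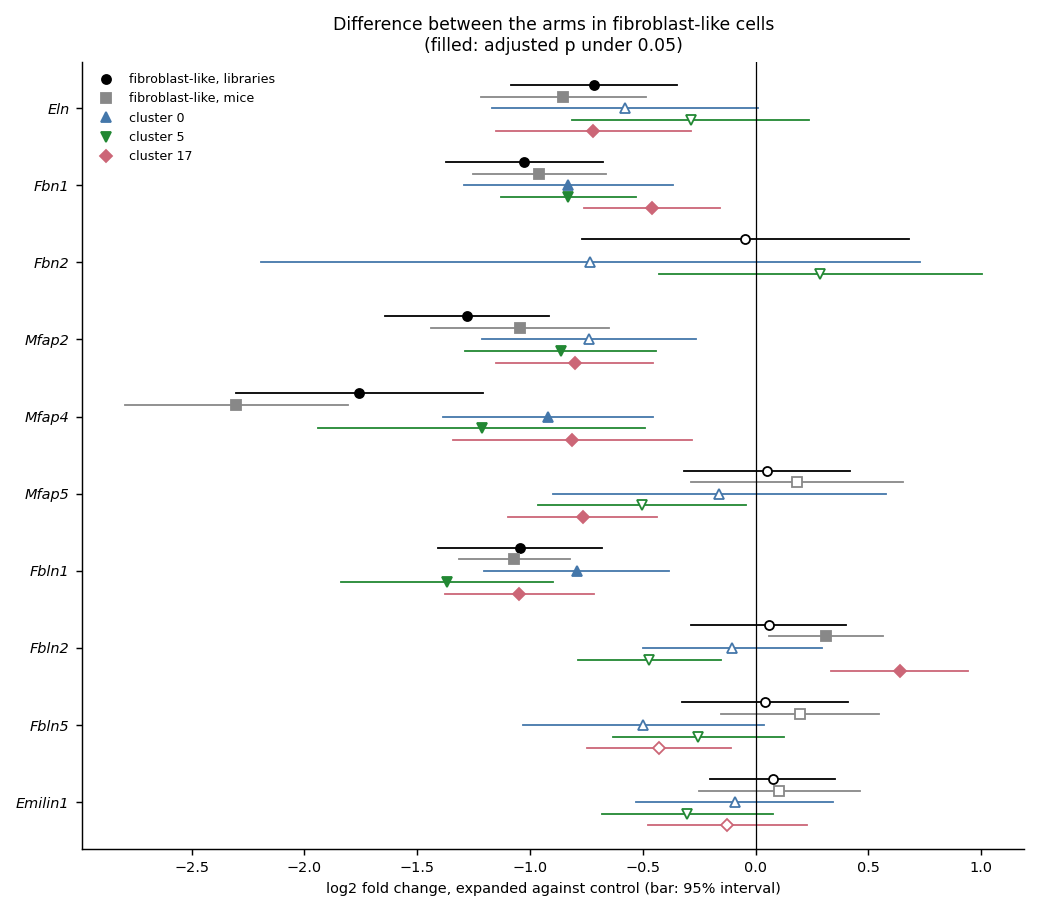
Log2 fold change of expanded against control (x axis) with its 95% interval for each elastic fibre gene in all fibroblast-like cells by library, the same cells by mouse, and clusters 0, 5 and 17 by library. Filled symbols passed an adjusted p under 0.05. Fbn1, Fbln1 and Mfap4 are filled throughout, and Fbln2 lies right of 0 in cluster 17 and left of 0 in cluster 5.

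Hashing antibodies, which tag the cells of 1 mouse before pooling, allowed sums by mouse. Of 8260 fibroblast-like cells in the hashed libraries, 3351 were assigned to a mouse. The mice of an arm and round shared 1 library and are not independent of it. Within a round, a difference between arms cannot be told apart from one between libraries. With at least 20 fibroblast-like cells per mouse, 14 control and 8 expanded mice could be tested, and 43.1% of 8045 genes were called. Of the 9 elastic fibre genes that passed the filter, 5 were called lower and 1 higher, and Fbn2 was filtered out. Mfap4 ran from 279.7 to 1470.0 CPM over control mice, with a median of 939, and from 129 to 375 over expanded mice, with a median of 226 (log2 fold change -2.30 ± 0.24, SE). The lowest control mouse lay inside the expanded range.

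Fbln1 had a median of 361 CPM in control mice (243.5 to 554) and 212 in expanded mice (142 to 290.2), with a log2 fold change of -1.07. Eln had medians of 807 and 555 CPM (383 to 1521 and 281 to 751), Fbn1 of 908 and 601 (621 to 1169.9 and 329 to 708) and Mfap2 of 332.0 and 160.03 (143 to 513 and 48.7 to 358), with log2 fold changes of -0.85, -0.96 and -1.05. Fbln2 was higher in expanded mice, with medians of 592 and 712 CPM (433 to 770 and 646 to 1287), a log2 fold change of 0.31 and an adjusted p of 0.0412 (edgeR). That call was lost with another rule for hashtags (0.23, adjusted p = 0.165), with which Emilin1 was called higher (0.43, adjusted p = 0.0161), and with no filter on low counts (0.24, adjusted p = 0.134). Day 1 gave only 1 expanded mouse, and with at least 50 cells per mouse 200 genes and 2 of the elastic fibre genes, Fbn1 and Mfap4, were called. Eln, Mfap2, Fbln1 and Fbln2 lost their calls there, at -0.92, -0.98, -0.65 and 0.027.

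By day, the fitted differences of Eln, Fbn1, Mfap2, Mfap4 and Fbln1 were below 0 on each day, with fewer calls. On day 1, 8.52% of genes were called, and of the 10 genes Mfap2 (-1.50, adjusted p = 0.0214) and Fbn1 (-1.02, adjusted p = 0.0497) were called. On day 2, 7.41% were called, among them Mfap4 (-2.14, adjusted p = 0.0143), Fbln1 (-1.32, adjusted p = 0.0171) and Mfap2 (-1.23, adjusted p = 0.0325). On day 4, with 1 library per arm and 0.448% of genes called, none of the 10 was called, although Mfap4 was at -2.20, Fbln1 at -1.34 and Fbn1 at -1.30. The lone libraries of day 4 were assumed to vary like the others.

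A test of whether the difference between arms depended on the day called 0 of the 12270 genes with edgeR (0% at an adjusted p under 0.05, against 460 genes, 3.75%, at an unadjusted p under 0.05) and 3 genes after thinning. Of the 10 genes, Fbn2 and Fbln5 had unadjusted p-values under 0.05, at 0.0309 and 0.0405. Fbn2 ran from -0.74 on day 1 to 1.40 on day 4, and Fbln5 from -0.44 on day 1 to 0.41 on day 2. Calls by day leaned on single libraries: each day 2 call was lost without round 1 of the control arm or either round of the expanded arm. On day 1, the Mfap2 call was lost without either control library or expanded round 2, and the Fbn1 call without any library but control day 2 round 2 and control day 4.

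Other classes were tested one at a time, and the difference between classes was not tested. In none of them did all 10 genes pass the filter on low counts, and a gene below it was not tested. Fbn2 passed in none of these classes and Mfap5 only in Schwann-like cells. In endothelial-like cells, where 12.1% of genes were called, Fbln2 fell from 315 ± 44.2 to 193 ± 102 CPM (log2 fold change -0.92, adjusted p = 0.0111, edgeR) and Fbn1 from 78.9 ± 18.1 to 34.1 ± 13.1 CPM (-1.35, adjusted p = 0.00234, edgeR). These were 2 of the 10 genes, and both kept their call without any one library. Fbln5, with a higher control mean there than in fibroblast-like cells, went from 222 ± 85.6 to 183 ± 99.9 CPM (-0.52, adjusted p = 0.231) and Eln from 90.0 ± 21.96 to 82.8 ± 46.9 CPM (-0.32, adjusted p = 0.447). In lymphatic endothelial-like cells, with 11.7% of genes called, Mfap2 (-1.80), Mfap4 (-2.57) and Fbn1 (-0.86) were called, and Fbln5 went from 246 ± 47.6 to 199.8 ± 39.9 CPM (-0.38, adjusted p = 0.160). Mfap2 went from 37.0 ± 16.9 to 12.8 ± 9.78 CPM, Fbn1 from 105 ± 24.5 to 62.0 ± 16.8 CPM and Mfap4 from 40.6 ± 35 to 6.69 ± 11.3 CPM. The control range of Mfap4, 5.31 to 97.1 CPM, overlapped with that of T cell-like cells, 6.19 to 38.2 CPM.

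In lymphatic endothelial-like cells the call of Fbn1 was lost without either day 4 library, and that of Mfap4 without any of 6 libraries. With cells thinned to 2000 UMIs, 0 of the 10 genes were called there: Fbn1 was at -0.41 (adjusted p = 0.474), and Mfap2 and Mfap4 did not pass the filter. In pericyte or smooth muscle-like cells, with 18.4% of genes called, Eln was the 1 gene of the 10 called (-1.49, adjusted p = 0.0438, edgeR), and 3 were called with the pairs as a block. Its control mean of 134 CPM rested on round 1 of day 1, at 400.1 CPM, and the call was lost without that library or any of 6 others and with DESeq2, and Eln did not pass the filter with thinned cells. Fbn1 was higher in expanded libraries in 5 of 5 pairs there, from 95.8 ± 26.8 to 164 ± 58.6 CPM, but was not called (0.68, adjusted p = 0.0817). Emilin1 stood at 83.6 ± 16.9 and 87.2 ± 14.9 CPM (-0.07, 95% interval -0.38 to 0.24).

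Basal keratinocyte-like cells, with 8.41% of genes called, kept Fbln1 at 62.8 ± 16.9 and 53.0 ± 10.8 CPM (-0.31, adjusted p = 0.287). There Mfap2 went from 21.7 ± 11.3 to 12.6 ± 5.97 CPM (-0.76, adjusted p = 0.0261), and Eln and Fbn1, at 15.9 and 10.8 CPM in control libraries, were also called lower. The level of Eln and Fbn1 did not exceed that of T cell-like cells. The 3 calls became 5 with the pairs as a block, and each was lost without any of at least 5 libraries, among them both of day 4. With thinned cells 0 of the 10 were called. Macrophage or monocyte-like cells, with 27.6% of genes called, had 6 of the 10 called lower, Eln, Fbn1, Mfap2, Mfap4, Fbln1 and Fbln2, at control levels of 4.96 to 20.2 CPM. T cell-like cells held 4.17 to 30.8 CPM of these 6 genes. The top value is that of Fbln2, which did not fall with the arm in T cell-like cells, at 31.2 CPM in expanded libraries. Macrophage or monocyte-like cells held 12.3 and 4.49 CPM of Fbln2, and whether the T cell-like level of Fbln2 is free RNA was not tested. With thinned cells only Mfap4 of the 10 was called in macrophage or monocyte-like cells. The count of 6 fell to 2 without control round 1 of day 1 or control day 4 and to 3 without expanded day 4, and the Fbn1 call was lost without any of 6 libraries. Eln and Mfap4 kept their call without any one library. Emilin1, at 8.87 CPM against 1.90 in T cell-like cells, was not called there (-0.35, adjusted p = 0.431). In T cell-like cells, 0.0843% of genes were called, and Fbln2, the only gene of the 10 that passed the filter, was not.

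In melanocyte-like cells there were 4 libraries per arm, and 1.42% of genes were called. Only Fbln2 and Fbln5 of the 10 genes passed the filter on low counts, and neither was called. Fbln5 stood at 19.98, 0, 24.6 and 7.11 CPM in the control and 45.5, 48.3, 34.4 and 82.6 CPM in the expanded libraries, from day 1 round 2, both rounds of day 2 and day 4. Fbln5 was higher in 4 of 4 pairs, but it did not pass the test (1.62, adjusted p = 0.0826, edgeR). It was called with no filter on low counts and without control round 2 of day 2 (2.46, adjusted p = 0.0415), and was at 1.00 without control day 4 and 1.01 without expanded day 4. With thinned cells Fbln5 did not pass the filter.

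In Schwann-like cells, with 4 control and 5 expanded libraries and 0.213% of genes called, 0 of the 10 genes were called. Fbn2 and Emilin1 did not pass the filter there. Eln stood at 112 ± 54.9 and 47.5 ± 53.6 CPM and was lower in 4 of 4 pairs, with overlapping arms (-1.90, adjusted p = 0.0820, edgeR). It was called with DESeq2 (adjusted p = 0.00184), with the pairs as a block (-1.69, adjusted p = 0.0382), with no filter on low counts, and without control or expanded round 2 of day 1 (-2.69 and -2.46).

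In dermal papilla-like cells, with 3 control and 4 expanded libraries, no test was planned. Only Mfap4 and Fbln5 of the elastic fibre genes did not overlap between arms, and the share of all genes without overlap here is not given. Mfap4 ran from 159.96 to 303 CPM in control and 42.1 to 75.6 CPM in expanded libraries, and Fbln5 from 57.6 to 113 and 29.3 to 37.8 CPM. Among those that overlapped, Emilin1, Mfap2 and Mfap5 were lower in 3 of 3 pairs. Fbln1, Fbln2 and Fbn1 were lower in 2 of 3, and Eln and Fbn2 were higher in 2 of 3. Fbn2, whose control mean was the highest of the named classes here, overlapped between arms, with means of 38.6 and 26.3 CPM.

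Over all kept cells of a library, all 10 genes were called lower in expanded skin, where 26.4% of genes were called and 13.8% were called lower. Mfap4 fell from 536 ± 166 to 103 ± 87.3 CPM (log2 fold change -2.84), Fbln1 from 201 ± 39.5 to 57.0 ± 37.2 CPM (-2.14) and Eln from 515 ± 256 to 176 ± 145 CPM (-1.84). Fbln5 fell the least, from 123 ± 24.1 to 85.9 ± 17.7 CPM (-0.70), with Emilin1 next, from 23.8 ± 3.25 to 16.4 ± 2.96 CPM (-0.72). These sums hold both the number of fibroblast-like cells and the RNA of each, which cannot be told apart in them. Fibroblast-like cells gave 93.0% of all Eln UMIs in control and 71.3% in expanded libraries, 54.1% and 28.2% of those of Fbln5, and 39.9% and 31.1% of those of Fbn2.

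Genes that act around the fibre were described by lists. Of 21 assembly and crosslinking partners, all tested in fibroblast-like cells, 14 were called lower and 1 higher, where 17.7% of all genes tested were called lower and 17.9% higher. Their median log2 fold change was -0.79, against 0.01 for all genes. Efemp2, which encodes fibulin 4, the binder that brings lysyl oxidase to elastin, rose by 0.66 (adjusted p = 0.00823, edgeR), from 59.7 ± 25.0 to 115 ± 54.2 CPM and in 5 of 5 pairs. Lox, the gene of the main lysyl oxidase that crosslinks elastin and collagen, fell by 0.55 (adjusted p = 0.0369), from 331 ± 106 to 259.9 ± 61.7 CPM. Its relative Loxl1 had 121 ± 29.7 and 149 ± 22.4 CPM and was not called (0.11, adjusted p = 0.665). Ltbp4, whose product helps fibulin 5 place elastin, fell by 1.25 (adjusted p = 0.00233).

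Fn1, the fibronectin gene, fell by 1.98 on the log2 scale, from 511 ± 161 to 159 ± 81.3 CPM, and Efemp1, which encodes fibulin 3, by 1.43, from 505 ± 84.8 to 216 ± 50.4 CPM. Fbln7 (-2.05), Adamtsl4 (-1.39), Adamts17 (-1.25), Emilin2 (-1.18) and Adamts10 (-0.91) were called lower as well. They fell in 5 of 5 pairs, which was a condition for naming them. Of the others called lower, Ltbp3 (-0.90) fell in 5 of 5 pairs. Adamtsl2 (-1.47), Loxl2 (-0.79), Ltbp1 (-0.77) and Loxl4 (-0.69) fell in 4 of 5. Fbln7, Adamtsl4, Adamts17 and Adamtsl2 were low in control libraries, at 8.09, 14.8, 4.55 and 5.16 CPM.

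Of 15 elastin-degrading enzymes and their inhibitors, 10 passed the filter, 2 were called higher and 3 lower, with a median of -0.21. With 35.6% of all genes called in that fit, these counts lie near the background. Both that rose are inhibitors: Timp1, a tissue inhibitor of metalloproteinases, by 2.97, from 145 ± 126 to 1254 ± 732 CPM, and Slpi, an inhibitor of neutrophil elastase, by 3.68, from 20.9 ± 29.8 to 217 ± 183 CPM. Timp1 is also among the leading genes of cluster 23. Timp2, another inhibitor of the family, fell by 1.17, from 2565 ± 477 to 1341 ± 396 CPM, and Mmp2, a gelatinase that also cleaves elastin, by 0.38. Cst3, another of the listed inhibitors, was called lower too (-0.67, adjusted p = 0.0142, edgeR), from 1305 ± 484 to 888 ± 201 CPM and in 4 of 5 pairs. Elane, Prtn3, Mmp7, Mmp9 and Mmp12 did not pass the filter in fibroblast-like cells.

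Of the 6 TGF-beta ligands and receptors (fibrillin microfibrils hold the ligands in latent form), 2 were called lower and 1 higher, with a median of -0.29, where 17.7% of all genes were called lower and 17.9% higher. With 6 genes, these counts lie near that background. Tgfb2 fell by 1.71, from 128 ± 38.4 to 44.5 ± 14.1 CPM, and Tgfbr3, a co-receptor, by 0.70. Tgfb1 rose by 0.49 (adjusted p = 0.0456, edgeR), from 56.3 ± 11.7 to 91.5 ± 15.5 CPM. Each of these 3 kept its direction in 5 of 5 pairs, which was a condition for naming Tgfb2 and Tgfbr3.

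**Figure D5:**
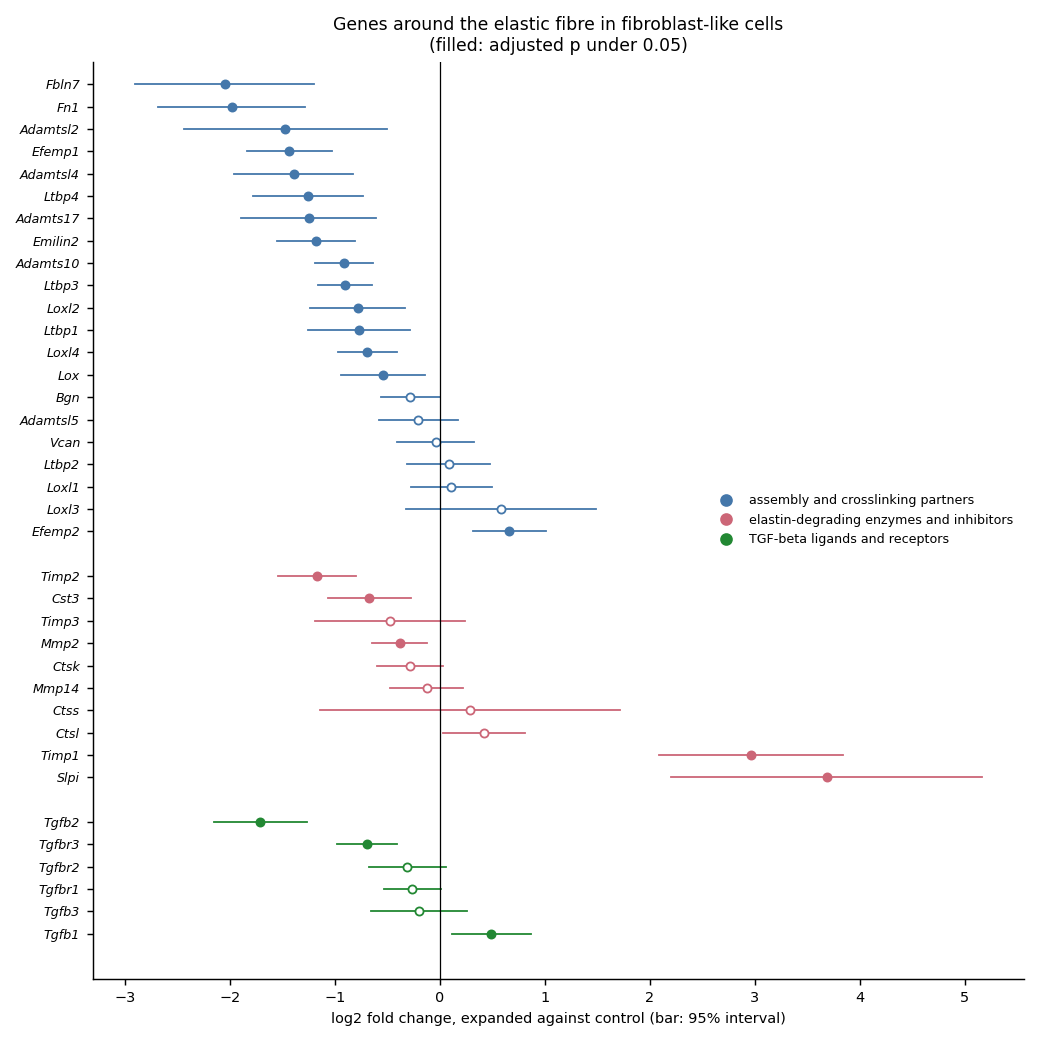
Log2 fold change of expanded against control in fibroblast-like cells (x axis) with its 95% interval for the genes tested of 3 lists, ordered by value within each list. Filled symbols passed an adjusted p under 0.05. Of the partners 14 are filled left of 0 and Efemp2 right of 0, and Timp1 and Slpi lie farthest right.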

How the data were processed

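UMI counts per gene and barcode were deposited by the authors as unnormalized matrices, made with Cell Ranger 6.1.2 on mm10 per the submitters' processing notes. Of the 18 samples, 10 were mRNA libraries and 8 lists of hashing antibodies, whose counts lay in the matrices. A barcode was kept if it had 200 genes and 500 UMIs or more and no more than 10% of its UMIs from mitochondrial genes, and doublets called by Scrublet or by hashtags were removed. Scrublet marked only 0.0584% to 2.97% of the cells of a library, so doublets may remain. Cells were clustered with scanpy 1.11.5 (2000 variable genes without the 10 members, 30 components, Leiden resolution 1) and named by marker lists. Mice were assigned with HTODemux (Seurat 5.3.0).

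UMI counts were summed per class, cluster or mouse (at least 20 cells) and tested with edgeR 4.0.16 (filterByExpr, TMM, quasi-likelihood test, Benjamini-Hochberg over all genes of a fit, call at 0.05). The model held day, and for mice day and round. DESeq2 1.42.0 served as an alternative. On simulated counts of 12270 genes in fibroblast-like sums, 69% of genes changed by 1 and 94% of those changed by 2 on the log2 scale were recovered. The simulation changed few genes, as many up as down, and held no day effect. In the data 35.6% of genes were called, so these rates may not carry over. The p-values measure the spread between libraries of pooled mice, or between mice in the fit by mouse.

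Per the labels' protocols, both arms of a day share a numbered sequencing round, which was taken to pair the libraries. In fibroblast-like cells, the deviations of paired libraries from the mean of their arm, which also hold what libraries of a day share, correlated with r = 0.474, 0.388, 0.0511, 0.319 and 0.418. Members and lists were chosen with earlier results of these data known. All 10 members were named, with listed genes called in 5 of 5 pairs (at most 8 per list by size) plus Lox, Loxl1, Efemp2, Ltbp4 and Tgfb1. Cst3, Adamtsl2, Loxl2, Loxl4 and Ltbp1, called but lower in only 4 of 5 pairs, were named as well, as was Ltbp3, beyond the limit of 8. Of 32285 identifiers, 32158 were found in the annotation used for positions.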

Additional observations from a re-analysis of the deposited data

Results flagged for a closer look

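In 58 groups of 4 or 5 libraries (1 gene or the sum of all 10, in 1 class and arm), 6 had a library far from the others by Dixon's criterion, and chance marks about 1 in 20 groups. In fibroblast-like cells the control library of day 4 stood at 212 CPM of Fbln5, and in lymphatic endothelial-like cells the same library stood at 331 CPM of Fbln5. In pericyte or smooth muscle-like cells round 1 of day 1 was high for Eln in both arms, at 400.1 CPM in the control library and 154 CPM in the expanded one. In macrophage or monocyte-like cells control round 1 of day 1 stood at 56.8 CPM of Eln, and expanded round 2 of day 1 at 11.7 CPM of Fbn1.

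Fbn1 was higher in every expanded library than in its partner in pericyte or smooth muscle-like cells (log2 fold change 0.68). It was lower in every pair in all fibroblast-like cells, in clusters 0 and 5, and in endothelial-like, lymphatic endothelial-like and Schwann-like cells. The same held in melanocyte-like cells, where Fbn1 did not pass the filter. Fbln5 was higher in every pair in melanocyte-like cells (1.62) and lower in every pair in cluster 17 and in dermal papilla-like cells. Fbln2 was higher in every pair in cluster 17 (0.64) and lower in every pair in macrophage or monocyte-like cells. The latter held only 12.3 CPM of Fbln2 in control and 4.49 CPM in expanded libraries, below the 30.8 and 31.2 CPM of T cell-like cells. These differences between cells were not tested.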

How the results depend on the processing

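In the sums of fibroblast-like cells by library over all days, Fbn1, Mfap2, Mfap4 and Fbln1 kept their direction and call under each of 25 alternatives, and Eln lost its call at Leiden resolution 2 and without cluster 23. The last, total-count scaling and the fits without day 4 were chosen after seeing the data. With cells thinned to 2000 UMIs, genes called fell to 2122 in fibroblast-like cells, 2438 in all kept cells, 211 in basal keratinocyte-like (0 members), 372 in endothelial-like, 242 in lymphatic endothelial-like (0 members), 1557 in macrophage or monocyte-like (1 member) and 487 in pericyte or smooth muscle-like cells. Thinning gave 3 genes for the day by arm test. With no filter on low counts, basal keratinocyte-like cells had 2011 genes and 6 members called, endothelial-like 1788 and 7, and pericyte or smooth muscle-like cells 5 members. DESeq2 called 1465 genes in basal keratinocyte-like cells. With the replicate block, basal keratinocyte-like cells had 1475 genes and 5 members called and pericyte or smooth muscle-like cells 3 members. The block also added the calls of Mfap2 in cluster 0 (-0.82) and Fbln2 in cluster 5 (-0.47). Without day 4, 2138 genes were called in all kept cells. With at least 50 cells per mouse, 200 genes and 2 members were called, and Eln, Mfap2, Fbln1 and Fbln2 lost their calls. In Schwann-like cells DESeq2 called 45 genes, no filter 260 (6 members) and the block 85 (4 members), and in melanocyte-like cells no filter gave 183 (3 members) and thinning 27.

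Signs turned only for members that were not called. Fbln5 was at -0.0072 with no filter and -0.021 without day 4. Fbln2 was at -0.00069 thinned, -0.072 at resolution 0.5, -0.13 with unnamed clusters added, -0.14 with a marker gate and -0.051 without day 4. Emilin1 was at -0.085 thinned, -0.048 at resolution 2, -0.074 without cluster 23 and -0.014 without day 4, and at 0.010 thinned in pericyte or smooth muscle-like cells. Mfap5 was at -0.19 at resolution 0.5, -0.12 with unnamed clusters and -0.17 with the gate, and was called higher at resolution 2 (0.56). Fbn2 was at 0.17 with unnamed clusters and 0.15 with total counts. Per mouse, Mfap5 was at -0.099 with the hashtag ratio rule, and Fbln5 at -0.70 and Emilin1 at -1.48 with at least 50 cells. The cause was not tested.

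Leaving out 1 library at a time gave 2148 to 4967 genes called in all kept cells, 9 to 1258 on day 1 (0 to 3 members), 24 to 1279 on day 2 (0 to 3 members) and 35 to 224 on day 4. It gave 165 to 1646 genes in basal keratinocyte-like (0 to 5 members), 625 to 1140 in endothelial-like, 205 to 766 in lymphatic endothelial-like (1 to 4 members), 1548 to 2935 in macrophage or monocyte-like (2 to 6 members) and 619 to 1267 in pericyte or smooth muscle-like cells (0 to 2 members), 3 to 57 in Schwann-like and 31 to 76 in melanocyte-like cells. In fibroblast-like cells the 5 calls held in all 10 such fits, and Emilin1 ran from -0.016 to 0.15, Fbln2 from -0.053 to 0.18, Fbln5 from -0.077 to 0.19, Fbn2 from -0.42 to 0.13 and Mfap5 from -0.099 to 0.16. Fbn2 had 9 to 341 UMIs per library and a 95% interval of -0.77 to 0.68.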
